A study of Monodelphis domestica with 5 samples.

Results

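H3K9me3 is a mark of repression (MOR) and H3K4me3 is a mark of activation (MOA), and the regions described here are those where a peak of the former met a peak of the latter while H3K9Ac, the other MOA profiled, was absent. They were taken as every deposited H3K9me3 peak on chromosomes 1 to 8 of the MonDom5 assembly of the opossum, *Monodelphis domestica*, that had 1 or more bases in common with H3K4me3 and no base in common with H3K9Ac. The rule was met by 2637 of the 152259 peaks on these chromosomes (1.73%), and the whole H3K9me3 list holds 159734. Since overlap with both MOAs chose the regions, it is described here and is not a finding. A further 1506 placed H3K9me3 peaks overlapped both MOAs, 90 overlapped H3K9Ac alone and 148026 overlapped neither.

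The peaks came from native ChIP-seq of primary ear fibroblasts of 1 adult male of an LL1 mother and an LL2 father, grown for 4 to 6 passages by the labels and below passage 5 by the Methods. Each of the 4 modifications (H3K27me3 being the other MOR) was profiled with 1 antibody and 1 library beside a library of input chromatin, and the labels name no treatment. Because each mark was measured once, no value has a replicate error and no test was made. Intervals are exact 95% binomial intervals, which treat peaks as independent and cover counting error only. The score of a peak is minus 10 times the log10 of its MACS p-value against the input, so that scores of 30, 50 and 100 stand for p of 0.001, 1e-05 and 1e-10. The deposited H3K4me3 and H3K9Ac lists begin at a score of 50 and the H3K9me3 and H3K27me3 lists at 30. A score rises with the width of a peak and the depth of its library, and scores of different lists are not on 1 scale. The lists hold no read counts, and the read totals that the study gives for its libraries were not used here. The H3K9me3 list was taken as deposited. Its number of peaks is the one that the study's supplement gives for the looser of its p-value limits for this mark. The lower score limit of the list thus goes with that looser limit. Whether the peaks of the study's stricter set are all in this list was not tested.

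As background, trimethylation of lysine 9 of histone H3 is bound by HP1 proteins and is typical of constitutive heterochromatin and silenced repeats. Trimethylation of lysine 4 marks promoters, most of them transcribed, and acetylation of lysine 9 usually accompanies it at active promoters. Lysine 9 of a single H3 tail can be acetylated or methylated but not both at once, whereas methylation of lysine 4 and of lysine 9 use different residues. H3K27me3 is laid down by the Polycomb complex PRC2, and its overlap with H3K4me3 is known as bivalent marking. Where peaks of opposing marks overlap in a population of diploid cells, the marks may lie on the same nucleosomes, on different alleles or in different cells, and peak lists cannot tell these apart.

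H3K9me3 peaks that met H3K4me3 without acetylation were stronger in the H3K9me3 list than those without an MOA. Their median score was 83.6 (interval 79.7 to 88.6, n = 2637), with quartiles of 47.4 and 178, against 52.2 (interval 52.0 to 52.3) for peaks with neither MOA and 69.4 (interval 66.2 to 73.2) for peaks with both. A p of at most 1e-05 was reached by 1906 of them (72.3%, interval 70.5% to 74.0%), against 53.8% of all placed H3K9me3 peaks. A p of at most 1e-10 was reached by 1150 (43.6%), against 16.3% of all placed H3K9me3 peaks and 34.4% of peaks with both MOAs. They were also somewhat wider, with a median of 1701 bases (interval 1664 to 1745) against 1505 for peaks with neither MOA and 1544 for peaks with both, and they ranged from 540 to 56307 bases. Score and width went together among the 2637 regions (Spearman's rho = 0.91, n = 2637 peaks of 1 library), so these measures are not separate evidence. With X and unplaced sequence the medians were 142 for the score and 2748 bases for the width over 4561 peaks, and among those with p of at most 1e-10 they were 203 and 2839 bases.

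The share of H3K9me3 peaks that carried H3K4me3 without H3K9Ac rose steeply with strength. It was 1.04% of 70394 peaks with scores from 30 to 50, 3.03% of 18815 peaks from 100 to 200 and 6.45% of 4679 peaks from 200 to 400. From 400 to 800 it was 14.4% of 1084 peaks, and from 800 to 1600 it was 40.9% of 220 peaks (interval 34.3% to 47.7%). At scores of 1600 and above it was 32 of 39 peaks (82.1%, interval 66.5% to 92.5%). Of the other 7 peaks at this strength, 3 overlapped both MOAs and 4 overlapped neither. Overlap with both MOAs was 0.717% in the weakest bin, 5% from 800 to 1600 and 7.69% in the strongest (interval 1.62% to 20.9%).

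**Figure D1:**
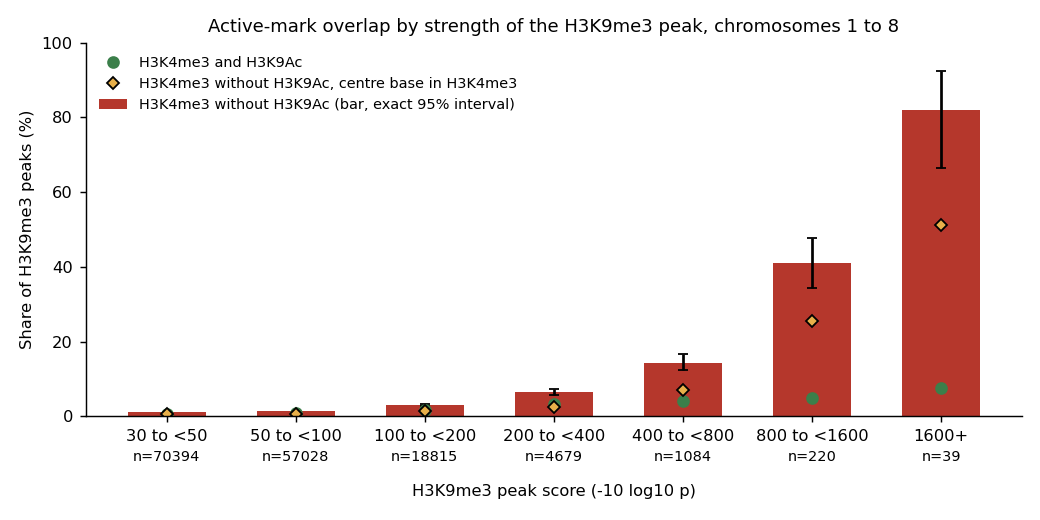
Share of H3K9me3 peaks on chromosomes 1 to 8 (vertical axis, percent) that overlapped H3K4me3 without H3K9Ac (red bars, with exact 95% binomial intervals), that did so with the centre base inside H3K4me3 (diamonds) and that overlapped both MOAs (green points), by H3K9me3 score (horizontal axis, n under each bin). The red bars climb from 1.04% in the weakest bin to 82.1% in the strongest, while the green points stay at or below 7.69%.

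A wide peak has more bases with which to touch another, so the same share was taken at like width. Among peaks 5000 to 10000 bases wide it was 1.20% of 251 peaks with scores from 100 to 200, 3.86% of 544 peaks from 200 to 400 and 24.5% of 564 peaks at 400 and above (interval 21.0% to 28.2%). Among peaks 2000 to 3000 bases wide it went from 0.584% of 16959 peaks below 100 to 7.24% of 1560 peaks from 200 to 400. When only the centre base of the H3K9me3 peak was asked to lie in H3K4me3, a measure that gives width no such advantage, the share was 0.564% in the weakest bin and 51.3% in the strongest. The rise was thus present at like width and at a single base.

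Most overlaps lay at an edge. Of the 2637 H3K9me3 peaks, 1862 (70.6%, interval 68.8% to 72.3%) crossed a single edge of 1 H3K4me3 peak, sharing a median of 621 bases and leaving 989 bases outside it. Another 432 (16.4%) covered a whole H3K4me3 peak, 247 (9.37%, interval 8.28% to 10.5%) lay wholly inside 1, and 96 (3.64%) touched more than 1. The edge-crossing peaks and the H3K4me3 peaks they met had median widths of 1602.5 and 1950.5 bases. Overlapping stretches of like width cross an edge in most placements. The share expected from placement alone was not computed, so 70.6% is a description only. The share of the H3K9me3 peak inside H3K4me3 had a median of 44.1% (quartiles 22.4% and 73.0%), with 319 peaks below 10%. Peaks with both MOAs were more often enclosed, with a median of 80.2% covered by H3K4me3 and 564 of 1506 (37.5%, interval 35.0% to 39.95%) wholly inside. The rule parts these classes by contact with H3K9Ac, and acetylated H3K4me3 peaks were wider than unacetylated ones. This contrast was not separated from either. The share wholly inside was 4.17% among regions with an H3K9me3 p of at most 1e-10 and 21.4% among those with at least 50% of the peak in H3K4me3.

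The arrangement changed with strength. H3K9me3 peaks wholly inside H3K4me3 were weak and narrow, with medians of 49.0 for the score and 1283 bases for the width, inside H3K4me3 peaks whose median was 3486 bases. Their centres lay at a median of 34.3% of the H3K4me3 width from the nearer edge, where 50% would be the middle. The enclosed peaks took a median of 40.9% of the H3K4me3 peak, so their centres could not come close to its edges. Peaks that covered an H3K4me3 peak were strong and wide, with medians of 322 for the score and 3781 bases for the width, around H3K4me3 peaks whose median was 1379 bases. In this arrangement the centre of the H3K4me3 peak lay at a median of 39.5% of the H3K9me3 width from the nearer edge. H3K4me3 took a median of 42.2% of these H3K9me3 peaks. Neither position was set against random placement. At least 1 whole H3K4me3 peak was covered by 2.19% of peaks with scores from 30 to 50, by 62.8% from 400 to 800 and by all 32 at 1600 and above. Since wide peaks enclose and narrow peaks are enclosed by geometry alone, and score follows width, this order describes how the overlaps look and was not separated from width.

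**Figure D2:**
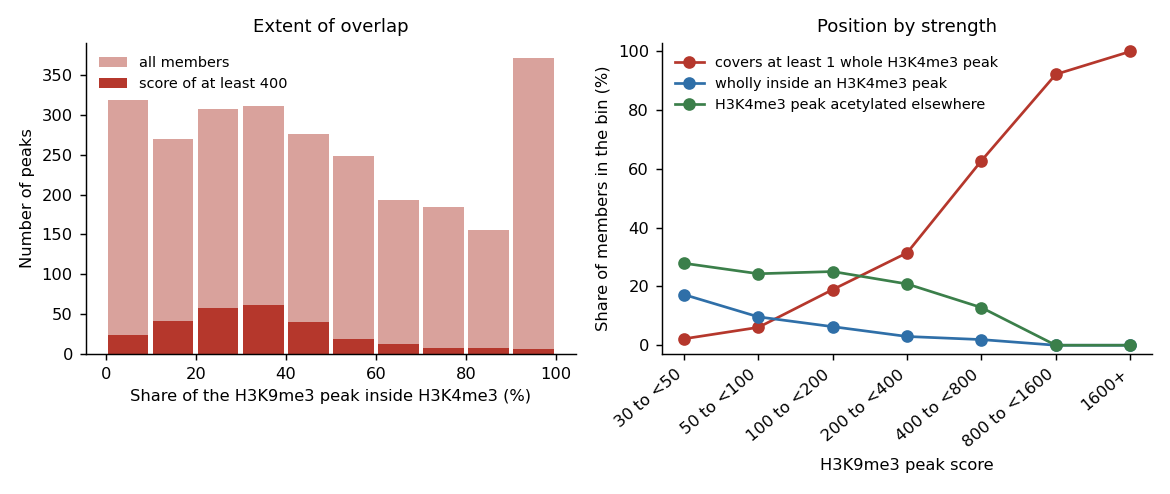
Left, number of H3K9me3 peaks with H3K4me3 and no H3K9Ac by the share of their width inside H3K4me3, for all 2637 (pale) and for those with a score of at least 400 (dark). Right, share of these peaks in each score bin that covered at least 1 whole H3K4me3 peak (red), lay wholly inside one (blue) or met an H3K4me3 peak that was acetylated elsewhere (green), where the red line reaches 100% at scores of 1600 and above and the others reach 0.

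The strongest regions had a common layout, a broad H3K9me3 block with H3K4me3 in its interior. Of 4 placed H3K9me3 peaks at the ceiling of the score (3100), 3 were of this kind. On chromosome 3 (chr3:501649356-501669561) a block of 20206 bases held a single H3K4me3 peak of 6671 bases with a score of 1624. H3K27me3, in 3 peaks, covered 48.8% of that block, and the nearest H3K9Ac peak was 123.3 kb away. On chromosome 4 a block of 15518 bases (chr4:403109337-403124854) held 2 H3K4me3 peaks, the larger of 6871 bases with a score of 976, and H3K9Ac was 27.5 kb away. A second block on chromosome 4, of 12775 bases (chr4:409596952-409609726), held 2 H3K4me3 peaks, the larger scoring 446, with an H3K9Ac peak of score 1443 only 8130 bases away. The next in rank, chr4:49482985-49526209, scored 2737 over 43225 bases, of which a single H3K4me3 peak of 2667 bases took 6.17%. The fifth, chr1:745967825-745978256, scored 2606 and had H3K4me3 over 55.2% of its 10432 bases. None of the last 4 carried H3K27me3. Genes at these positions are not named, as no annotation of MonDom5 was used here.

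**Figure D3:**
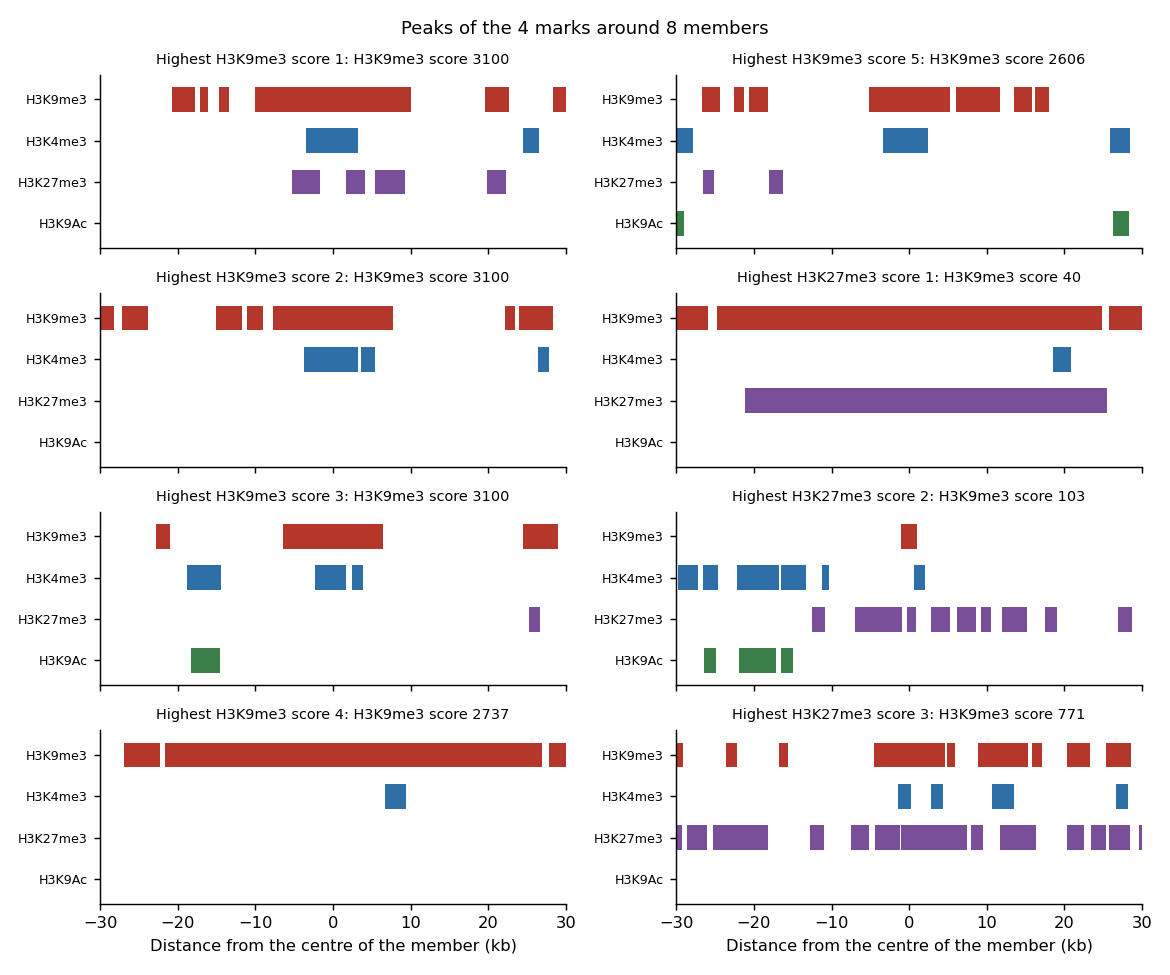
Peaks of H3K9me3 (red), H3K4me3 (blue), H3K27me3 (purple) and H3K9Ac (green) within 30 kb of the centre of 8 of the regions, as horizontal bars by distance in kb, with rows for the 4 marks and bars cut at the edge of each panel. The 5 with the highest H3K9me3 score show H3K4me3 bars in the interior of a wide H3K9me3 bar, and the 3 with the highest H3K27me3 score follow.

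The longest stretches shared by H3K9me3 and H3K4me3 were partly of another kind. The longest, 16313 bases on chr3:51876324-51895467, was made up of 4 H3K4me3 peaks, of which the widest had 5081 bases but a score of only 53.4. H3K27me3 covered 48.6% of that region as well. On chr1:464552540-464562576, 94.8% of 10037 bases lay in 2 H3K4me3 peaks, the wider scoring 85.9, and 99.8% lay in H3K27me3. On chr3:380606980-380619191 the wider H3K4me3 peak, of 7579 bases, scored 50.4, near the bottom of its list, and no H3K9Ac peak lay within 1519 kb. The other 2 were the block at chr4:403109337-403124854 and chr3:447633263-447646030, where the H3K4me3 peak sharing most bases scored 3100 over 5170 bases. H3K4me3 peaks that were so wide and so weak were rare, as only 9 of the 8330 placed ones at least 4500 bases wide scored below 100. Of those 9, 8 belonged to the regions described here, 6 overlapped H3K27me3 and none overlapped H3K9Ac. This width and score were chosen after these 5 regions had been seen.

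Most of the H3K9me3 peaks, 2541, met a single H3K4me3 peak, and 96 met more than 1. For 2023 of the 2637 regions (76.7%) no H3K4me3 peak they met was acetylated at any point, and for 614 (23.3%, interval 21.7% to 24.9%) an H3K4me3 peak they met carried H3K9Ac outside the H3K9me3 peak, a share that was 13.7% with X and unplaced sequence. The 2042 unacetylated H3K4me3 peaks involved were modest, scoring a median of 122 (interval 117 to 128) over 1634 bases. The 28805 unacetylated H3K4me3 peaks without H3K9me3 were weaker still, at 108 (interval 107 to 109) over 1431 bases. H3K27me3 overlapped 6.42% of the former (interval 5.39% to 7.57%) and 1.15% of the latter (interval 1.03% to 1.28%). The 610 acetylated H3K4me3 peaks involved were strong, scoring a median of 807 (interval 734 to 873) over 3791 bases. Acetylated H3K4me3 peaks without H3K9me3 scored a median of 478 (interval 471 to 486) over 2569 bases. A wide H3K4me3 peak has more bases with which to meet H3K9me3 and still hold H3K9Ac outside it. These contrasts were not made at like width.

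Strong H3K4me3 without any acetylation was uncommon, and a part of it lay in these regions. At the ceiling of the H3K4me3 score, near 3100, only 15 placed peaks lacked H3K9Ac, and 6 of them (40%, interval 16.3% to 67.7%) met an H3K9me3 peak of this kind. The corresponding share was 18.8% of 80 unacetylated peaks with scores from 1600 to the ceiling and 5.78% of 13918 with scores from 50 to 100. Among the 5754 acetylated H3K4me3 peaks at the ceiling, 6.08% overlapped any H3K9me3 peak. For the 15 unacetylated ones that share was also 40%, as the rule takes in most H3K9me3 peaks that meet them. None of these shares was taken at like H3K4me3 width. The score of an H3K9me3 peak and that of the strongest H3K4me3 peak it met were almost unrelated across the 2637 regions (Spearman's rho = -0.04, a description within 1 pair of libraries).

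The distance from these regions to acetylation varied widely. The nearest H3K9Ac peak was a median of 8241 bases away (interval 7358 to 9156), with quartiles of 1273 and 27318 bases, and the range ran from 0 (adjacent, with no shared base) to 7.56 Mb. It lay within 1000 bases of 591 regions (22.4%), within 5000 bases of 1102 (41.8%) and more than 10000 bases from 1221 (46.3%). With X and unplaced sequence the median distance was 25433 bases. Where the H3K4me3 peak was acetylated elsewhere, the gap between H3K9me3 and H3K9Ac had a median of 312 bases (interval 282 to 356, n = 614). By the rule and this grouping H3K9me3 and H3K9Ac could not share a base there, so their separate places on the H3K4me3 peak are not a finding. Where the H3K4me3 peak was not acetylated, the median gap was 14079 bases (interval 13045 to 15052, n = 2023). Of these regions, 503 (24.9%) had an acetylated H3K4me3 peak within 5000 bases. Measured from the H3K4me3 peaks themselves, the gap to H3K9Ac was 14749 bases (interval 13678 to 15579) for unacetylated peaks of these regions and 12620 bases (interval 12322 to 12930) for unacetylated peaks without H3K9me3. H3K9me3 peaks with neither MOA were much farther from acetylation, at a median of 290776 bases. Only the regions must meet H3K4me3, which H3K9Ac usually accompanies, so the rule itself bears on this contrast.

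**Figure D4:**
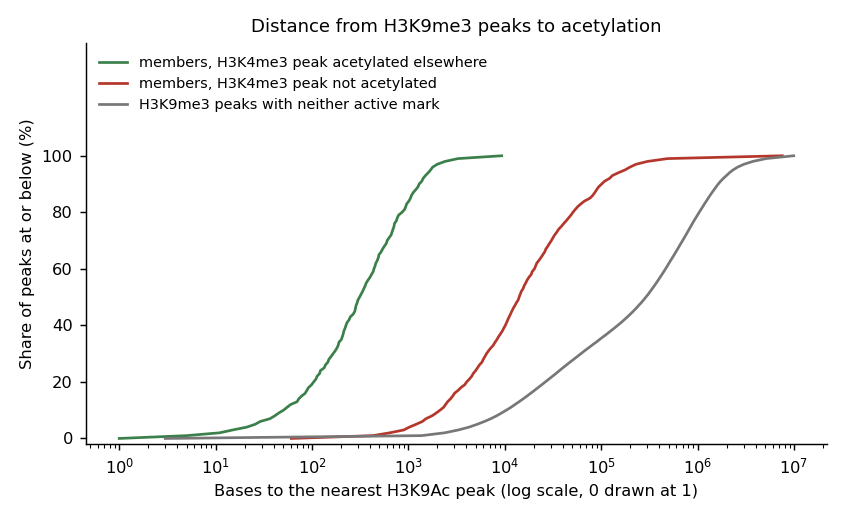
Cumulative share of H3K9me3 peaks (vertical axis, percent) by the number of bases to the nearest H3K9Ac peak (horizontal axis, log scale, with 0 drawn at 1), drawn through percentiles, for regions whose H3K4me3 peak was acetylated elsewhere (green), regions whose H3K4me3 peak was not acetylated (red) and H3K9me3 peaks with neither MOA (grey). The medians are 312, 14079 and 290776 bases, for groups that were themselves set by overlap with the MOAs.

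The rule itself limits how wide a region that meets an acetylated H3K4me3 peak can be, since an H3K9me3 peak that covered the whole of it would touch its H3K9Ac. None of the 432 regions that covered a whole H3K4me3 peak met an acetylated one, and score followed width, so the values that follow only describe the regions. For those meeting an acetylated H3K4me3 peak the median score was 69.0 (interval 63.7 to 76.1) against 88.99 (interval 84.3 to 95.3) for the others, and the highest score was 704. Regions meeting an acetylated H3K4me3 peak made up 27.9% of those with scores from 30 to 50, 12.8% from 400 to 800 and none of the 122 at 800 and above.

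The rule sets a boundary of a single base, and many peaks lay close to it on either side. The fewest bases shared with H3K4me3 were 2, at chr5:241609666-241611272 (score 45.0) and chr8:112430769-112432201 (score 79.5), followed by 3 at chr2:98807219-98808024 (score 32.0). In all, 196 regions shared fewer than 100 bases with H3K4me3, and 200 peaks with neither MOA lay less than 100 bases from it. The closest of these to H3K4me3 had gaps of 0, 1 and 1 bases and scores of 44.6, 63.4 and 119. On the other side, 119 regions lay less than 100 bases from H3K9Ac, the closest being chr6:81500223-81503733 (score 579), which adjoined it, then chr1:577705478-577706851 and chr4:62802448-62805106 with gaps of 1 and 2 bases. Peaks that failed the rule by sharing fewer than 100 bases with H3K9Ac numbered 124, and the smallest such overlaps were 1, 3 and 4 bases.

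H3K27me3, which the rule did not use, overlapped 216 of the 2637 regions (8.19%, interval 7.17% to 9.30%), against 3.9% of all placed H3K9me3 peaks. The share was 3.82% for peaks with neither MOA (interval 3.72% to 3.92%) and 4.25% for peaks with both (interval 3.29% to 5.39%). The share among the regions was 36.2% with X and unplaced sequence, 4.08% where at least 50% of the peak lay in H3K4me3 and 4.89% when H3K27me3 peaks needed a p of at most 1e-05. These settings also change the share among other H3K9me3 peaks, which is not given for them. Whether the difference from other peaks holds under them was not tested. Of the 216, 129 met an H3K27me3 peak with p of at most 1e-05, and the highest H3K27me3 score met by each had a median of 57.3. H3K27me3 covered a median of 57.6% of the H3K9me3 peak. In 128 of them (59.3%, interval 52.4% to 65.9%) at least 1 base lay in peaks of H3K9me3, H3K4me3 and H3K27me3 alike, and the stretch common to all 3 had a median of 713 bases. In the rest the H3K27me3 peak met a part of the H3K9me3 peak outside H3K4me3.

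Regions with H3K27me3 were stronger and wider than the rest and lay farther from acetylation. Their median H3K9me3 score was 198 (interval 151 to 248) against 79.1 (interval 75.3 to 83.2), and their median width was 3000 bases against 1653. The gap to H3K9Ac was 31388 bases (interval 23150 to 43986) against 7309 bases (interval 6428 to 8261). Of the 216, 2 (0.926%) were wholly inside H3K4me3, against 247 (9.37%) of all 2637 regions. Enclosed regions were narrow, with a median of 1283 bases, so this difference was not separated from width.

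Because H3K27me3 overlap rises with the strength and width of any H3K9me3 peak, the higher share was compared at like score and at like width, and the comparisons differed. At scores from 30 to 50 the share was 3.42% of these regions (interval 2.23% to 5.01%) against 1.61% of peaks with neither MOA. At scores from 200 to 400 it was the lower one, 12.3% (interval 8.77% to 16.5%) against 20.6% (interval 19.4% to 21.9%). At scores of 400 and above it was 25.2% of 278 regions (interval 20.2% to 30.7%) against 41.4% of 1007 peaks (interval 38.3% to 44.5%). At like width, below 2000 bases, the share was 4.04% of 1609 regions (interval 3.13% to 5.12%) against 2.38% (interval 2.29% to 2.47%). From 2000 to 3000 bases it was 8.60% (interval 6.29% to 11.4%) against 5.71% (interval 5.43% to 5.99%). From 3000 to 5000 bases it was 13.5% (interval 9.93% to 17.7%) against 11.8% (interval 11.1% to 12.4%), and at 5000 bases and above 31.1% against 28.2%. At both of these widths the intervals overlap. Width and score were held together only from 2000 bases and a score of 200 up, which leaves out most regions. With width and score held together, from 5000 to 10000 bases and at scores of 400 and above, 33 of 138 regions (23.9%, interval 17.1% to 31.9%) overlapped H3K27me3 against 44.4% of 396 peaks with neither MOA (interval 39.5% to 49.5%). In the same width range but at scores from 200 to 400 the order was the other way, with 8 of 21 regions (38.1%, interval 18.1% to 61.6%) against 20.5% of 521 peaks (interval 17.1% to 24.3%), and the intervals overlap. At 10000 bases and above and scores of 400 and above, the shares were 46.7% of 45 and 42.0% of 69. Between 2000 and 5000 bases the regions had the lower share at scores of 200 and above. From 2000 to 3000 bases it was 6.19% of 113 regions against 21.0% at scores from 200 to 400. At 400 and above it was 20% of 10 against 27.1%. From 3000 to 5000 bases these pairs were 12.7% of 150 against 20.6%, and 15.9% of 82 against 40.9%. The intervals were apart in the first and last of these pairs and overlapped in the others.

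**Figure D5:**
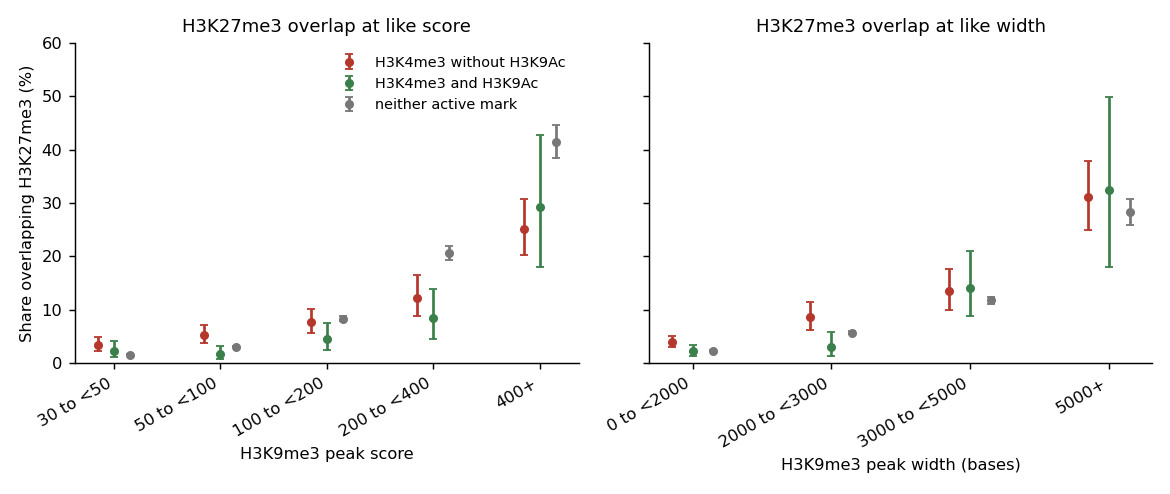
Share of H3K9me3 peaks that overlapped H3K27me3 (vertical axis, percent, with exact 95% binomial intervals) by H3K9me3 score (left) and by width in bases (right), for peaks with H3K4me3 and no H3K9Ac (red), both MOAs (green) and neither (grey). At scores of 400 and above the red point is at 25.2% and the grey point at 41.4%, while at 5000 bases and above they are at 31.1% and 28.2%.

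The region with the highest H3K27me3 score had a weak H3K9me3 peak. At chr3:458624263-458673893 an H3K27me3 peak of 46647 bases with a score of 714 covered 92.5% of an H3K9me3 peak that was 49631 bases wide but scored only 39.6, and an H3K4me3 peak of 2274 bases lay inside both. No H3K9Ac peak was within 370.6 kb. It was the only region among 9 placed H3K9me3 peaks at least 10000 bases wide with a score below 100. The second, chr1:598820005-598822117, crossed the edge of an H3K4me3 peak and met 2 H3K27me3 peaks, the stronger scoring 337. The third, chr1:333119921-333129035, had an H3K9me3 score of 771 and held 2 whole H3K4me3 peaks, with 97.2% of its bases in H3K27me3 and H3K9Ac 91.3 kb away.

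The regions were spread over all 8 chromosomes but were not even. They made up from 1.16% of H3K9me3 peaks on chromosome 5 to 1.99% on chromosome 1, and from 0.606 per Mb on chromosome 6 to 0.888 per Mb on chromosome 3, with each length taken as the largest peak end. The strong ones were more uneven, as 46 of the 122 with scores of 800 and above lay on chromosome 3, 29 on chromosome 4 and 27 on chromosome 1. All 259 placed H3K9me3 peaks of this strength were uneven as well, with 75, 53 and 59 on the same chromosomes. Within 10 Mb of a chromosome end lay 174 of the 2637 (6.60%, interval 5.68% to 7.61%), against 3.90% of peaks with neither MOA and 6.44% of peaks with both. The end of chromosome 3, from 500 Mb on, held 107 regions with a median score of 552, which were 8.42% of its 1271 H3K9me3 peaks, and 36 of the 122 strong ones. This stretch was not set in advance, and the scores of its other H3K9me3 peaks are not given here. Whether the strength was particular to the regions was thus not tested.

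Of 1399 windows of 1 Mb with at least 1 region, 794 held exactly 1, while 14 held 10 or more. These 14 windows, chosen by their counts, contained 182 regions (6.90%) and 0.688% of placed H3K9me3 peaks. The fullest ran from 745 to 746 Mb on chromosome 1, with 17 regions among 110 H3K9me3 peaks and a median score of 824, and from 447 to 448 Mb on chromosome 3, with 17 among 40. Another 6 were on chromosome 3 between 500 and 527 Mb, with median scores from 280 to 1137. Outside the 14 windows, regions still made up 75 of 193 H3K9me3 peaks with scores of 800 and above (38.9%, interval 31.9% to 46.1%), against 122 of 259 (47.1%) with them.

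H3K27me3 overlap in these windows ran from none to nearly all of the regions. It was highest from 333 to 334 Mb on chromosome 1, with 13 of 15 regions, and from 187 to 188 Mb on chromosome 4, with 12 of 14. Next came 6 of 10 from 332 to 333 Mb on chromosome 1, 9 of 17 from 447 to 448 Mb on chromosome 3 and 5 of 11 from 500 to 501 Mb on the same chromosome. In the other 9 windows it was between 0 and 4 regions. The 2 windows with the highest overlap held 42 and 37 H3K9me3 peaks in all. H3K27me3 overlap is not given for the other H3K9me3 peaks of these windows. Whether it was particular to the regions or shared by their surroundings was not tested.

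The surroundings of these regions differed from those of H3K9me3 peaks with neither MOA, in part because the rule requires H3K4me3. Within 50000 bases on each side of the centre they had a median of 3 other H3K9me3 peaks, as did peaks with both MOAs, against 9 for peaks with neither. They had a median of 5 H3K4me3 peaks, including those they met, and 2 H3K9Ac peaks, against 6 and 4 for peaks with both MOAs and 0 and 0 for peaks with neither. No H3K9Ac peak lay within that distance of 433 (16.4%). Regions with scores of 400 and above had a denser setting of H3K9me3, with a median of 7 others, and a median of 1 H3K27me3 peak against 0 for all regions. Neighbours of other H3K9me3 peaks of this strength are not given. Whether this setting was particular to the regions was not tested.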

How the data were processed

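Native ChIP-seq was performed by the authors on micrococcal nuclease-digested chromatin of 1 animal, and samples were assigned to antibodies from the labels, which also speak of pooled chromatin for sisters only. The authors removed poor reads, aligned the rest to MonDom5 (Bowtie, run in Galaxy) with 1 best alignment per read, and called peaks for every antibody by MACS with input as control. How reads from repeats were placed can therefore affect where peaks lie. The submitters' processing notes name CASAVA 1.7, Bowtie 1.1.2 and MACS 1.0.1. The deposited lists give each peak a score, which is -10 log10 of its p-value from MACS. Starts were read as counted from 0 and are printed counted from 1, and 2 starts below 0 were set to 0.

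Overlaps were computed in Python 3.11.15 with numpy 2.4.6, scipy 1.17.1 and pandas 2.3.3, tested on simulated peaks and checked against bedtools 2.31.1. A single common base counted as overlap, and chromosome X and unplaced sequence were left out. Medians carry order statistic intervals. Named regions are the 5 with the highest H3K9me3 score, the 5 with the longest stretch in H3K4me3, the 3 with the highest H3K27me3 score and those nearest the limits of the rule. Alternatives were set for thresholds, extent of overlap, distance from H3K9Ac, merging and chromosomes. The rule and these measures were chosen with earlier results of these data known. No MonDom5 genome or annotation was used, so sequences and genes at the regions were not analysed here.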

Additional observations from a re-analysis of the deposited data

Results flagged for a closer look

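Sequence not placed on a chromosome lay outside the comparisons above, and H3K9me3 peaks with H3K4me3 and no H3K9Ac were frequent there. They numbered 1921 of 6978 H3K9me3 peaks (27.5%, interval 26.5% to 28.6%), against 1.73% on chromosomes 1 to 8, and their medians were 243 for the score and 5791 bases for the width. On X there were 3 of 497 (0.604%).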

How the results depend on the processing

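For 7 results 57 alternative values were computed, of which 14 stayed within the interval of the main value, or within 1.5 times it for a count, and 43 did not. No median, share or count has a direction that could reverse, and values for other H3K9me3 peaks are not given beside these alternatives. At an H3K9me3 p of at most 1e-05 the median score was 120.2, the median width 2084 bases, and the shares wholly inside H3K4me3, with H3K27me3 and with an acetylated partner were 6.35%, 10.02% and 21.5%. At 1e-10 there were 1150 regions with a median score of 203 and width of 2839 bases, shares of 4.17%, 13.1% and 19.7%, and H3K9Ac 10636 bases away. With both MOAs at 1e-10 the median score was 79.5, the width 1655 bases, the share inside 13.4% and the gap to H3K9Ac 10838 bases. When at least 50% of the peak had to lie in H3K4me3, 1153 regions were left, with a median score of 66.1, a width of 1493 bases, shares of 21.4%, 4.08% and 21.2% and a gap of 6778 bases. With no H3K9Ac within 5000 bases there were 1535, with a median score of 94.3, a width of 1812 bases, shares of 7.17%, 11.3% and 0.0651% and a gap of 21470 bases. Merging peaks within 1000 bases gave a width of 1815 bases, 11.3% inside and 28.6% with an acetylated partner. With X and unplaced sequence there were 4561, with a median score of 142, a width of 2748 bases, 36.2% with H3K27me3, 13.7% with an acetylated partner and a gap of 25433 bases. With H3K27me3 at p of at most 1e-05 its share was 4.89%. Without the 14 windows of 10 or more regions, an alternative chosen after seeing the data, the median score was 78.5, the width 1656 bases and the share with H3K27me3 6.52%. The stricter H3K9me3 thresholds remove weak peaks by construction, and the cause of the other shifts was not tested. No paired analysis was possible because each antibody has 1 library. Read totals were not used here and replicate error is unknown, so none of these shares can be set against variation between animals or libraries.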
